A study of Homo sapiens with 18 samples.

Results

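The lamins and the proteins of the inner nuclear membrane were followed as 10 genes through 18 libraries of ribosome profiling and mRNA sequencing. The genes were LMNB1, LMNB2, LMNA, LBR, TMPO, EMD, SUN1, SUN2, LEMD3 and BANF1. They were chosen by name, not by a measured value, though with earlier results of these data known. All 10 were found among the 38716 gene symbols in the tables.

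Lamins are intermediate filament proteins that form a meshwork, the lamina, under the inner nuclear membrane. B-type lamins (LMNB1, LMNB2) stay attached to the membrane through a lipid anchor, while lamin A, an A-type lamin made from LMNA, is released from it by a processing protease. The lamina and the proteins LBR, TMPO, EMD and LEMD3 hold heterochromatin at the nuclear edge, BANF1 bridges DNA and the LEM-domain proteins, and SUN1 and SUN2 cross the membrane to link the lamina to the cytoskeleton. Loss of LMNB1 is a widely used marker of senescent fibroblasts.

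All cells were IMR90, a single line of human fetal lung fibroblasts. The young group was proliferating, low-passage cells. The old group had been carried to high passage, where the line had entered replicative senescence. The ICM group was low-passage cells given inflachromene (ICM), an inhibitor that targets HMGB1 and HMGB2, a pair of abundant chromatin proteins. The labels gave no dose or time for these ICM samples and no genetic change in any group. Each condition had 3 replicates, grown independently per the study's methods, and each lysate was divided between Ribo-seq, which sequences the mRNA fragments protected by ribosomes (footprints), and poly(A)-selected mRNA-seq.

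The mRNA-seq libraries held 7902427 to 14144455 reads in exons of coding genes, and the Ribo-seq libraries 46239 to 1718521 reads in coding sequences (CDS). In Ribo-seq, young replicate 1 and old replicate 2 stood apart, with 34.4% and 15.0% of their reads in CDS against 54.7% to 88.8% in the other libraries. ICM replicate 3, the shallowest Ribo-seq library, held 411 CPM (counts scaled to library size) of footprints on 4 cell cycle genes (MKI67, CDK1, CCNB1 and TOP2A). ICM replicates 1 and 2 held 54.2 and 81.8, and the mRNA-seq library of replicate 3 held 12.0 CPM. A single footprint equals 4.93, 13.6 and 22.8 CPM in ICM replicates 1 to 3, so these footprint sums rest on few reads. The fibroblast label held: 6 fibroblast markers summed to 25784 to 30992 CPM of mRNA in young and old cells and 10509 to 10738 in ICM cells. The epithelial markers summed to at most 1.74 CPM, and CDH5 and CD3E were at 0 in every mRNA-seq library. In the Ribo-seq library of old replicate 2 CDH5 stood at 20.1 CPM, which is 1 footprint. The muscle markers MYH11 and DES were also present, and summed to 78.4 to 85.6 CPM of mRNA in young, 59.4 to 72.9 in old and 29.4 to 29.8 in ICM cells. CD68 rose from 19.4 to 21.3 CPM in young cells to 53.1 to 65.2 in ICM cells with PTPRC at or below 0.23 CPM, and VWF reached 3.90 CPM in ICM cells. The part of these markers in the results below was not tested.

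On GRCh37, the human genome build named in the submitters' processing notes, the GENCODE annotation placed LMNB1 on chr5:126112315-126172712, LMNB2 on chr19:2427636-2456957 and LMNA on chr1:156052364-156109872. LBR lay on chr1:225589204-225616627, TMPO on chr12:98909357-98944129 and EMD on chrX:153607633-153609934. SUN1 lay on chr7:856252-936072, SUN2 on chr22:39129295-39190148, LEMD3 on chr12:65563363-65642135 and BANF1 on chr11:65769699-65771620. LMNB2, LBR and SUN2 were on the minus strand. The authors split the reads of these genes into 5′ UTR, CDS and 3′ UTR, apart from 6.0 mRNA-seq reads of LMNB1 that they assigned to another transcript class, which were not used here. Their coding lengths differed widely, from 89 codons in BANF1 to 911 in LEMD3, with 586 in LMNB1, 620 in LMNB2 and 664 in the lamin A form of LMNA.

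The promoters of all 10 genes were searched for words known from promoters of cell cycle genes. Each promoter ran from 250 bases before to 50 bases after the start of the canonical transcript. The words were the CHR (TTTGAA), the CCAAT box (CCAAT) and the E2F word (TTNNCGC, with C or G at each N), on both strands. No word contains another, but an E2F word with G at both places and a reversed CCAAT box can overlap. The 30-base windows around selected matches of LMNB1, TMPO, LBR and SUN2 are shown on the strand of the gene, with the matched word in capitals. Windows of the other genes, LMNB2 among them, are not shown. Each line marks 1 word, and ATTGG and TTCAAA are CCAAT and TTTGAA read on the other strand.
LMNB1 at chr5:126112678-126112707, CCAAT box: tgcctgctccccATTGGcccatggtagtca
TMPO at chr12:98909292-98909321, CCAAT box: cgagccgtctcgCCAATcaccgccgcgctt
TMPO at chr12:98909324-98909353, CCAAT box: tcccgtcgcccgCCAATggcggcgcgcgtt
LBR at chr1:225615870-225615899, CHR: cgccggggatgaTTCAAAaggtcgaggagc
LBR at chr1:225615893-225615922, CCAAT box: cacggcgcgcgaCCAATcgacagcgccggg
SUN2 at chr22:39152097-39152126, CHR: cggggctttgtgTTCAAAccggccaatggg
The CCAAT box was in the promoters of 7 of the 10 genes (LMNB1, LMNA, LBR, TMPO, EMD, SUN2 and LEMD3), and in 36.0% of all 19894 promoters searched. The CHR word was in 4 (LMNB2, LBR, SUN1 and SUN2) and in 11.5% of all promoters. An E2F word was in 3 (SUN1, LEMD3 and BANF1) and in 17.1% of all promoters. LMNB1 and TMPO held the CCAAT box only, and whether any factor bound these words was not measured.

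Per coding length, the LMNA message was the most abundant of the 10 in every condition. Levels on this scale are the CPM of CDS reads divided by the coding length in kilobases, and in young cells they were 415 ± 27.9 for LMNA (mean ± SD, n = 3), 241 ± 26.7 for BANF1 and 126 ± 0.22 for EMD. LMNB2 followed at 92.4 ± 4.71. TMPO at 62.2 ± 4.28 and SUN1 at 58.2 ± 3.99 overlapped in their libraries, as did SUN2 at 49.1 ± 4.41 and LMNB1 at 46.1 ± 4.26. LBR stood at 29.4 ± 1.00 and LEMD3 was lowest at 7.59 ± 0.99. The length used for TMPO is that of its beta form, while reads of its other forms were also counted.

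The order of the lower genes changed between conditions. LMNB1 was the 8th of 10 in young cells and the 10th in old cells (5.86 ± 0.52, n = 3) and ICM cells (0.43 ± 0.21). TMPO went from the 5th place to the 7th in old cells (16.6 ± 2.47) and the 9th in ICM cells (7.38 ± 0.78), where its libraries overlapped those of LEMD3 (7.95 ± 0.21). LMNA, BANF1 and EMD kept the first 3 places, with no overlap between them, in all 3 conditions. In footprints on the same scale, neighbouring genes mostly overlapped, and LMNB1 went from the 6th place in young cells (73.7 ± 19.2) to the 10th in old (9.85 ± 2.65) and ICM cells (6.50 ± 6.18).

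**Figure D1:**
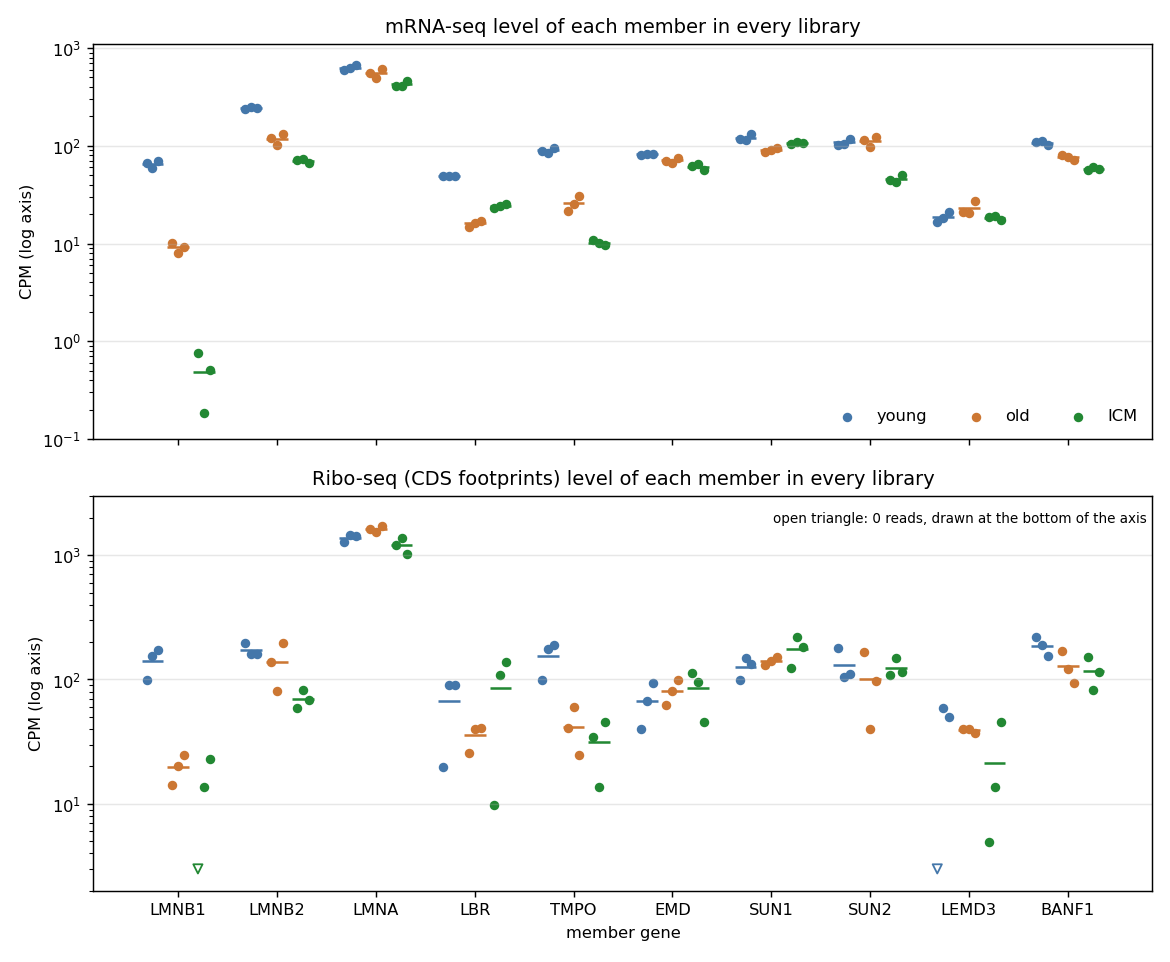
Levels of the 10 genes in every library, in CPM on a log axis, for mRNA-seq (top) and Ribo-seq (bottom); points are libraries, coloured by condition, and lines are means of 3 where no library is at 0. LMNB1 mRNA lies between 59.2 and 70.0 CPM in young libraries and between 0.19 and 0.75 in ICM libraries, while LMNA stays at or above 408 CPM in all 9.

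LMNB1 showed the deepest loss of the set. In mRNA-seq its level was 66.9, 59.2 and 70.0 CPM (with TMM scaling between libraries) in young replicates 1 to 3, 10.2, 7.93 and 9.18 in old replicates, and 0.75, 0.19 and 0.51 in ICM replicates. The 3 conditions did not overlap, and the ICM libraries held 10, 2.5 and 6.5 estimated reads. The fitted change was -6.99 on the log2 scale (SE 0.18, adjusted p = 2.68e-19, edgeR quasi-likelihood test) in ICM against young cells, a 127-fold lower level. In old against young cells it was -2.86 (SE 0.11, adjusted p = 1.02e-15), 7.24-fold lower, and in ICM against old cells it was -4.14 (SE 0.26, adjusted p = 2.94e-12). The SEs of both ICM comparisons are smaller than the counting error of so few ICM reads. Ordered from the deepest fall, LMNB1 was gene 8 of 13173 tested in ICM cells and gene 107 in old cells. Both comparisons share the 3 young libraries. In these bulk samples fewer cells with the message and less message per cell cannot be told apart.

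LMNB2, the other B-type lamin gene, fell less. Its mRNA ran from 239 to 246 CPM in young, from 102 to 132 in old and from 67.4 to 72.7 in ICM libraries, without overlap between conditions. The fitted log2 changes were -1.79 (SE 0.08) in ICM and -1.05 (SE 0.07) in old against young cells, and -0.74 (SE 0.08) in ICM against old cells, all past the edgeR test.

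LMNA, which encodes lamins A and C, moved least of the 3. Its young libraries held 592, 629 and 669 CPM, its old libraries 561, 490 and 612, and its ICM libraries 408, 409 and 458, so that young and old overlapped and ICM lay below both. The fitted log2 change was -0.57 (SE 0.08, adjusted p = 7.04e-07) in ICM cells. In old cells it was -0.19 (SE 0.08, adjusted p = 0.0360, edgeR), a call that was lost without old replicate 1 (adjusted p = 0.0683), old replicate 2 (0.214), young replicate 2 (0.0772) or young replicate 3 (0.141), when only the young and old libraries were fitted (0.0636), and without both lysates of low CDS share (0.105). Of the 9 values of each lamin gene, 2 to 4 were not whole numbers in mRNA-seq and 3 to 7 in Ribo-seq. Fractions can add up to a whole number, so these counts do not measure how many reads were shared by near-identical sequence.

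The unequal falls changed the proportions of the lamins. Within a library, the ratio of 2 genes per coding length does not depend on scaling between libraries. From mRNA-seq CDS reads the LMNB1 to LMNA ratio came to 0.111 for young, 0.0169 for old and 0.00136 for ICM cells (geometric means, n = 3 each). The LMNB2 to LMNA ratio was 0.223, 0.120 and 0.0926, and the LMNB1 to LMNB2 ratio 0.498, 0.141 and 0.0147. None of the 9 mRNA comparisons of these ratios overlapped, and each had an exact permutation p = 0.1 (two-sided), the smallest that 3 against 3 libraries allow. Footprints gave LMNB2 to LMNA ratios of 0.131 for young, 0.0897 for old and 0.0602 for ICM cells, with exact permutation p = 0.1 for ICM against young, 0.3 for old against young and 0.2 for ICM against old. Ratios with LMNB1 footprints were not formed because ICM replicate 1 held none.

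**Figure D2:**
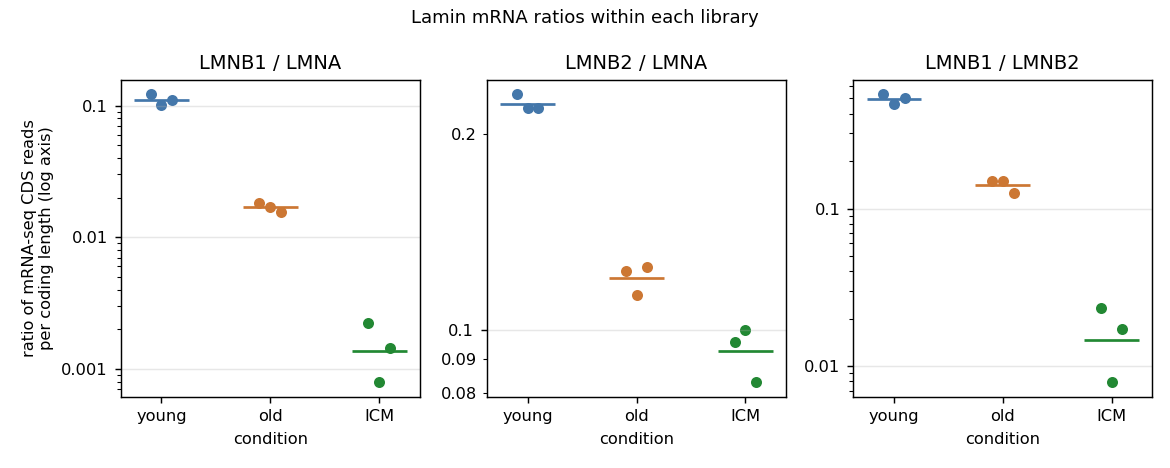
Ratios between lamin genes within each mRNA-seq library (CDS reads per coding length, log axis); points are libraries and lines are geometric means of 3. In each panel young, old and ICM libraries form separate steps, the deepest for LMNB1 to LMNA, from 0.111 in young to 0.00136 in ICM cells.

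LBR, a membrane receptor for B-type lamins and heterochromatin and also a sterol reductase, fell further in old cells than in ICM cells. Its mRNA was 48.6, 48.6 and 49.3 CPM in young, 14.8, 16.4 and 17.1 in old and 23.0, 24.0 and 25.1 in ICM replicates, 3 groups without overlap. The fitted log2 changes were -1.59 (SE 0.08) in old and -1.02 (SE 0.08) in ICM against young cells, and ICM cells lay above old cells by 0.57 (SE 0.09, adjusted p = 6.22e-06, edgeR). LBR was with SUN1 one of the 2 genes of the set called higher in ICM than in old cells.

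TMPO, which encodes the lamina-associated LAP2 proteins, showed the second deepest fall. Its mRNA was 88.3, 85.1 and 95.9 CPM in young, 21.7, 25.6 and 30.5 in old, and 10.9, 10.1 and 9.75 in ICM replicates, again without overlap. The log2 changes were -3.13 (SE 0.10) in ICM and -1.78 (SE 0.09) in old against young cells, and -1.34 (SE 0.11) in ICM against old cells. The levels of LMNB1 and TMPO were thus ordered young, old, ICM, while LBR was ordered young, ICM, old.

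The messages of EMD and LEMD3, the other genes of the set with a LEM domain, moved less than that of TMPO. EMD, which encodes emerin, held 80.3 to 83.1 CPM of mRNA in young, 67.3 to 74.4 in old and 56.3 to 65.3 in ICM libraries. Its log2 changes were -0.42 (SE 0.07) in ICM and -0.21 (SE 0.07, adjusted p = 0.00978) in old against young cells. The ICM against old difference of -0.21 (SE 0.07, adjusted p = 0.0125, edgeR) was lost without ICM replicate 3 (adjusted p = 0.102) or old replicate 3 (0.0502), and was -0.31 (0.00277) with CDS reads only.

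LEMD3, which encodes MAN1, a LEM-domain protein that also binds SMAD proteins, was the only gene of the set called higher in old than in young cells. It held 16.5, 18.4 and 21.0 CPM in young, 21.2, 20.6 and 27.3 in old and 18.8, 19.0 and 17.4 in ICM replicates, and young overlapped both other groups. The log2 change in old cells was 0.30 (SE 0.11, adjusted p = 0.0242), and it was not called without old replicate 3 (adjusted p = 0.206), young replicate 1 (0.0929) or young replicate 2 (0.0706). In ICM against young cells the change was -0.028 (SE 0.11, adjusted p = 0.838). ICM lay below old by 0.32 (SE 0.11, adjusted p = 0.0131, edgeR), a call lost without ICM replicate 3 (0.0539) or old replicate 3 (0.131).

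BANF1, the small DNA-bridging protein that LEM-domain proteins bind, fell in both. Its mRNA ran from 101 to 111 CPM in young, 70.8 to 81.3 in old and 56.1 to 59.9 in ICM libraries, without overlap. The log2 changes were -0.89 (SE 0.07) in ICM and -0.49 (SE 0.07) in old against young cells, and -0.39 (SE 0.07) in ICM against old cells. With CDS reads only, the old against young change was -0.23 (adjusted p = 0.0411, edgeR).

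The 2 SUN genes, whose products anchor the cytoskeleton to the lamina, differed from each other. SUN2 mRNA was 102, 105 and 118 CPM in young, 116, 96.8 and 124 in old and 45.0, 42.4 and 49.7 in ICM replicates. Young and old overlapped, with a log2 change of 0.043 (SE 0.08, adjusted p = 0.667), while every ICM library lay below both groups, at -1.25 (SE 0.09, adjusted p = 2.09e-11) against young and -1.29 (SE 0.09, adjusted p = 1.44e-11) against old cells. SUN2 was the only gene of the set called in ICM and not in old against young cells, and the difference between ICM and old cells was itself past the edgeR test. SUN1 held 113 to 132 CPM in young, 87.2 to 95.9 in old and 105 to 110 in ICM libraries. Its log2 changes were -0.41 (SE 0.07, adjusted p = 1.52e-05) in old and -0.18 (SE 0.07, adjusted p = 0.0202) in ICM against young cells, the latter lost without ICM replicate 1 (adjusted p = 0.0794), ICM replicate 3 (0.0573) or young replicate 3 (0.146). ICM cells lay above old cells by 0.23 (SE 0.07, adjusted p = 0.00522).

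Counted over the set, 9 of 10 genes were called lower in ICM than in young cells in mRNA-seq and none higher, where 71.0% of all 13173 genes tested were called, 36.1% lower and 34.9% higher. The old against young counts were 8 lower and 1 higher (66.1% of all genes called, 33.7% lower and 32.4% higher), and those of ICM against old cells 8 lower and 2 higher (63.3% called, 32.6% lower and 30.7% higher). The share of the set called in either direction thus stood above that of all genes by less than the share called lower did. The ranges of CPM did not overlap for 9 of the 10 genes between ICM and young, 7 between old and young and all 10 between ICM and old libraries, against 74.5%, 67.1% and 66.3% of all genes. The median log2 change of the set was -0.96, -0.45 and -0.39 in the 3 comparisons, against -0.0070, -0.015 and -0.0080 for all genes tested. With an absolute log2 change over 0.6 also required, 6 genes were called in ICM against young, 4 in old against young and 4 in ICM against old cells, all lower, against 38.4%, 32.6% and 29.4% of all genes.

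Levels of the state markers stand beside these falls. The 4 cell cycle genes summed to 451 to 471 CPM of mRNA in young, 103 to 118 in old and 12.0 to 17.1 in ICM libraries. CDKN1A, which encodes the cell cycle inhibitor p21, averaged 514 CPM in young, 1551 in old and 3315 in ICM cells. CDKN2A did not follow this order, with means of 49.6 CPM in young, 75.8 in old and 42.0 in ICM cells. Its ICM libraries overlapped the young ones and lay below the old ones. HMGB2 averaged 110, 20.3 and 5.12 CPM and HMGB1 379, 144 and 114 CPM. Their part in the lamin changes was not tested.

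Footprints showed the same 2 deep falls, on few reads. LMNB1 had 5.0, 96.0 and 269.5 CDS footprints in young replicates 1 to 3, 20.5, 1.0 and 12.5 in old, and 0, 1.0 and 1.0 in ICM replicates. Scaled to depth these were 99.0, 153 and 172 CPM in young, 14.2, 20.1 and 24.6 in old and 0, 13.6 and 22.8 in ICM libraries, so that both other groups lay below every young library and overlapped each other. Summed over libraries, the ICM rate was 26.4-fold below the young rate (exact 95% interval 7.25 to 218, counting error only), from 2 reads against 370. The fitted log2 changes were -4.61 (SE 0.68, adjusted p = 2.48e-06) in ICM and -3.18 (SE 0.32, adjusted p = 1.03e-09) in old against young cells. The SE of the ICM change is smaller than the counting error of 2 reads. The ICM against old value of -1.43 (SE 1.05, adjusted p = 0.424, edgeR) rested on 2 against 34 reads and was not called at this depth.

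TMPO footprints were 99.0, 174 and 190 CPM in young, 40.5, 60.4 and 24.6 in old and 34.5, 13.6 and 45.7 in ICM libraries. All old and ICM libraries lay below all young ones, and the log2 changes were -2.50 (SE 0.44, adjusted p = 5.03e-05) in ICM and -2.28 (SE 0.27, adjusted p = 2.76e-08) in old cells. ICM and old overlapped, with a difference of -0.22 (SE 0.57, adjusted p = 0.854).

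LMNB2 footprints were lower in ICM cells only. They stood at 198, 160 and 159 CPM in young, 139, 80.5 and 195 in old and 59.1, 81.9 and 68.5 in ICM libraries, and old overlapped both other groups. The log2 change was -1.29 (SE 0.37, adjusted p = 0.00787) in ICM against young cells, lost without ICM replicate 1 (adjusted p = 0.120). It was -1.24 (SE 0.37, adjusted p = 0.0193) in ICM against old cells, with 0.0869 under the replicate block, 0.163 in DESeq2, 0.0656 with only the compared groups, 0.179 without ICM replicate 1 and 0.125 without old replicate 3. Old against young was -0.052 (SE 0.22, adjusted p = 0.869).

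LBR footprints varied widely between replicates. They were 19.8, 91.1 and 89.7 CPM in young, 25.6, 40.2 and 41.0 in old, and 9.85, 109 and 137 in ICM replicates, where the deepest ICM library had 2 reads and the other 2 had 8 and 6. The fall in old cells, -1.48 (SE 0.36, adjusted p = 0.00168), became -0.63 (adjusted p = 0.488) under the replicate block and -1.18 (0.326) in DESeq2. It was also lost without old replicate 1 (0.171), young replicate 2 (0.177) or young replicate 3 (0.223). The ICM against old value of 0.76 (SE 0.62, adjusted p = 0.480, edgeR) became 1.84 (0.0316) without ICM replicate 1.

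Footprints of the other genes did not pass the edgeR test in any comparison. LMNA footprints were 1268 to 1451 CPM in young, 1529 to 1708 in old and 1028 to 1364 in ICM libraries, with log2 changes of -0.20 (SE 0.17) in ICM and 0.22 (SE 0.16) in old against young cells. In ICM against old cells, where the LMNA libraries did not overlap, the change was -0.42 (SE 0.17, adjusted p = 0.104), and -0.57 (adjusted p = 0.0467) without old replicate 2. SUN2 footprints ran from 104 to 178 CPM in young, 40.2 to 167 in old and 108 to 150 in ICM libraries. EMD, SUN1 and BANF1 changed by -0.42 to 0.38 on the log2 scale with SEs of 0.22 to 0.39. LEMD3 had 116 footprints in young, 76.0 in old and 4.0 in ICM cells in all and was below the filter on low counts.

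In all, 3 of the 9 genes tested in Ribo-seq were called lower in ICM than in young cells (LMNB1, LMNB2 and TMPO), where 26.6% of all 4643 genes tested were called, 12.9% lower and 13.7% higher. The 3 called in old against young cells were LMNB1, LBR and TMPO, all lower (36.3% called, 17.0% lower and 19.3% higher). Between ICM and old cells LMNB2 alone was called (13.4% called, 7.62% lower and 5.79% higher). The CPM ranges of footprints did not overlap for 4, 3 and 1 of the 10 genes in the same 3 comparisons, against 30.4%, 38.9% and 22.9% of the genes tested. The shares called in either direction and without overlap lay near those of all genes, and none of the set was called higher. Without both lysates of low CDS share, 10 genes were tested and the counts were 4, 3 and 2, all lower. The gene added in ICM against young cells was LEMD3, at -2.18 (SE 0.77, adjusted p = 0.0280, edgeR), which then passed the filter, and the gene added in ICM against old cells was LMNA, at -0.61 (adjusted p = 0.00781).

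**Figure D3:**
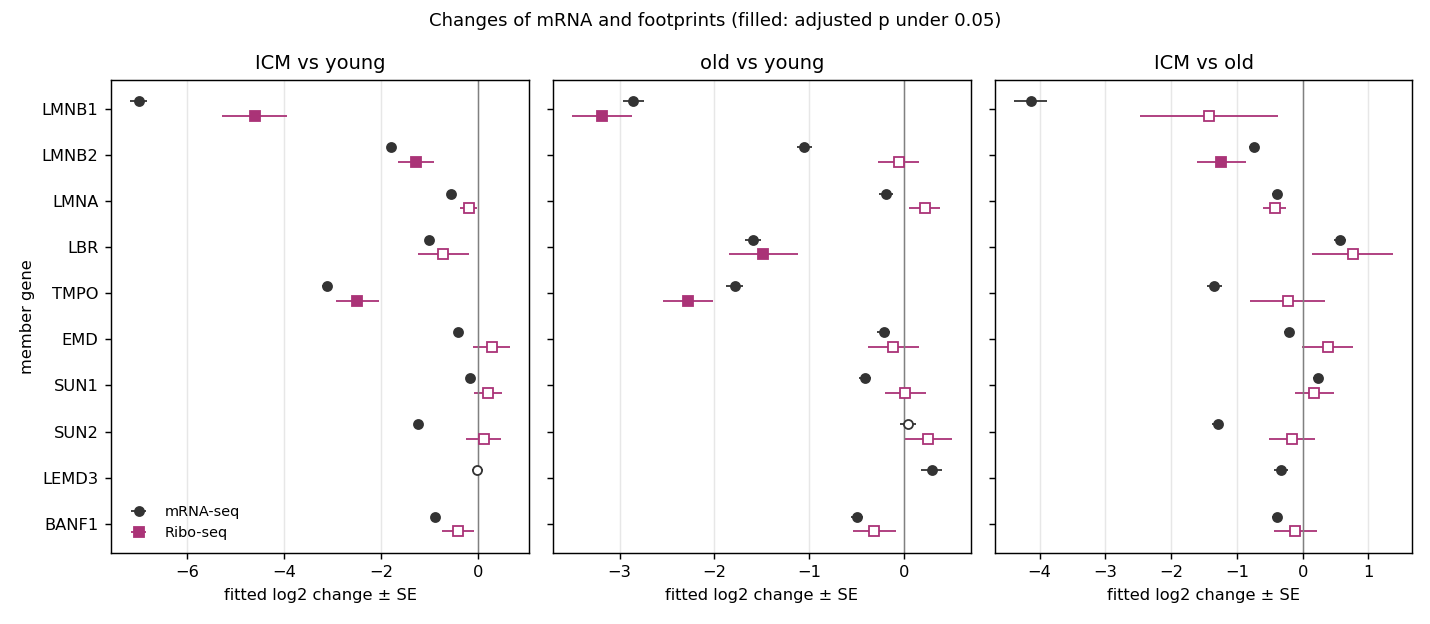
Fitted log2 changes of mRNA (circles) and CDS footprints (squares) for the 10 genes in 3 comparisons, with standard errors; filled symbols passed an adjusted p of 0.05 and LEMD3 was tested in mRNA-seq only. LMNB1 and TMPO lie far left in both assays against young cells, and the SUN2 mRNA value in ICM cells (-1.25) lies far left of its footprint value (0.10). Error bars come from the F statistic and can be too short where reads are few, as for LMNB1 in ICM cells.

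Translational efficiency, the footprint change relative to the mRNA change, was tested in 1 model of both assays, as the term by which the change differs between them. SUN2 was the only gene of the set called in ICM against young cells, with a log2 difference of 1.42 (SE 0.40, adjusted p = 0.0487), where 2.45% of 4618 genes were called. Its mRNA fell by 1.25 and its footprints changed by 0.10 (SE 0.36). The call was lost in 13 of 15 alternative fits, with adjusted p up to 0.403 without young replicate 3, while the difference ran from 1.12 to 1.48 over the fits in which it was lost.

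LMNB2 alone was called in old against young cells, at 0.98 (SE 0.22, adjusted p = 0.0107), where 1.45% of genes were called. The ratio of footprint to mRNA CPM in a lysate was 0.83, 0.65 and 0.65 in young and 1.15, 0.79 and 1.47 in old replicates, and the ranges overlapped. The call was lost in DESeq2 (adjusted p = 0.148), without the filter on low counts (0.299) and without old replicate 1 (0.178), old replicate 3 (0.859), young replicate 2 (0.723) or young replicate 3 (0.587). No gene of the set was called in ICM against old cells (0.26% of all genes), where SUN2 stood at 1.21 (SE 0.40, unadjusted p = 0.00441, adjusted p = 0.209, edgeR) and was the only gene with an unadjusted p under 0.05. For LMNB1 the ICM against young value of 2.22 (SE 1.58, adjusted p = 0.514) rested on 2 ICM footprints and carries no direction.

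The part of each message that held its mRNA-seq reads varied between genes more than between conditions. LMNB2 had 55.2% ± 1.23 (SD, n = 3) of its reads in the 3′ UTR in young, 56.6% ± 1.07 in old and 56.7% ± 1.03 in ICM cells, while LMNA had 83.4% ± 1.44, 82.2% ± 1.69 and 81.9% ± 1.47 in the CDS. BANF1 had the largest 5′ UTR share, 36.9% ± 5.99 in young, 29.8% ± 2.10 in old and 38.2% ± 6.57 in ICM cells. Its CDS share was 38.2% ± 3.46 in young and 45.1% ± 0.98 in old cells, without overlap. EMD had a CDS share of 74.5% ± 2.29 in young, 74.3% ± 1.01 in old and 68.5% ± 3.59 in ICM cells, where the ICM libraries lay below both other groups. For LMNB1 the ICM libraries held no 3′ UTR read, on 19.0 estimated reads in all, where the young share was 8.65% ± 0.90.

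**Figure D4:**
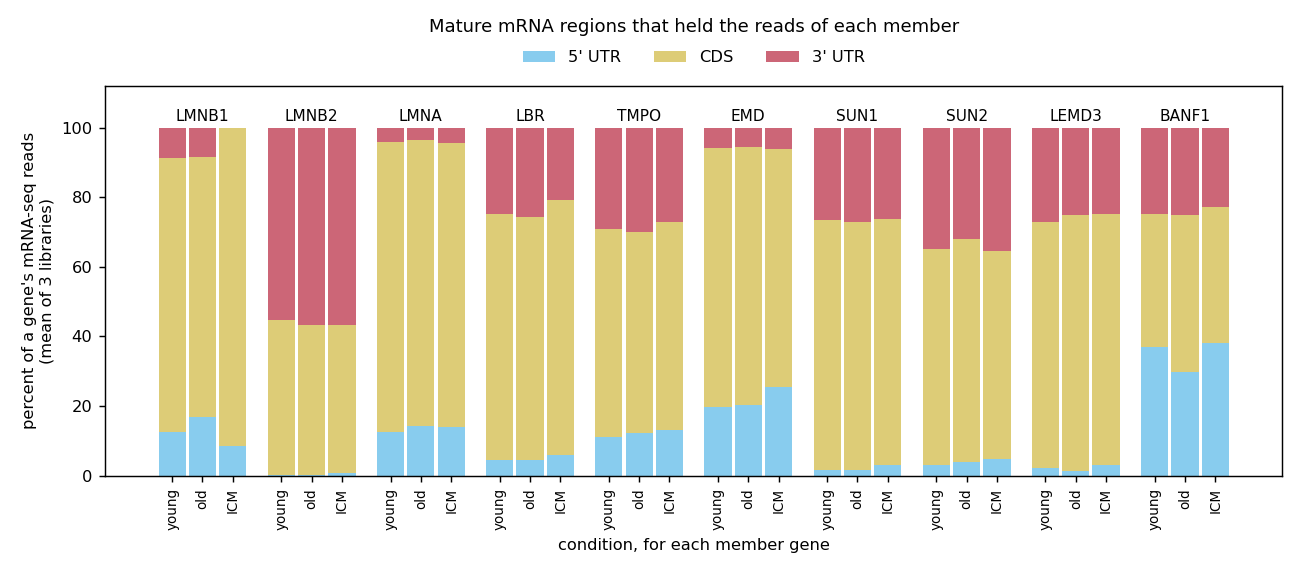
Share of the mRNA-seq reads of each gene in the 5′ UTR, CDS and 3′ UTR, as the mean of 3 libraries for young, old and ICM cells. The bars differ mostly between genes, such as the large 3′ UTR share of LMNB2 (55.2% to 56.7%) and the large 5′ UTR share of BANF1.

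A list of 40 other genes of the nuclear envelope and lamina was read beside the set, and 36 of them passed the filter in mRNA-seq. In ICM against young cells 13 were called higher and 16 lower (71.0% of all genes called in either direction), and in old against young cells 17 higher and 14 lower (66.1%), with medians of -0.010 and 0.13 on the log2 scale against -0.0070 and -0.015 for all genes. In ICM against old cells 6 were higher and 17 lower (median -0.10), where 63.3% of all genes were called. In Ribo-seq, 19 of the genes were tested, with 1 higher and 4 lower in ICM (26.6% of all genes called) and 5 higher and 3 lower in old against young cells (36.3%).

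Genes of the list that rose included the lamin A processing protease ZMPSTE24, by 1.08 (SE 0.08) in ICM and 0.58 (SE 0.08) in old against young cells on the log2 scale in mRNA-seq. The lamina and chromatin partner AKAP8L rose by 1.41 (SE 0.08) in ICM cells, and TOR1B, an ATPase of the nuclear envelope lumen, by 0.64 (SE 0.07) in ICM and 1.15 (SE 0.07) in old cells. CHMP7 and TOR1AIP2 completed the 5 largest rises in ICM cells, and ANKLE2, ICMT and SYNE1 those in old cells, each by 0.40 to 0.62. ICMT methylates the end of farnesylated proteins such as lamins, and ANKLE2 is a LEM-domain protein.

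The same 5 genes of the list led the falls in both comparisons. CENPF, a kinetochore protein of dividing cells that binds the lamina, changed by -6.25 (SE 0.15) in ICM and -2.67 (SE 0.10) in old cells. The inner membrane protein NRM changed by -2.95 (SE 0.17) and -1.08 (SE 0.13), and the BANF1 kinase VRK1 by -2.26 (SE 0.14) and -1.43 (SE 0.12). The nesprin SYNE2, a partner of the SUN proteins, changed by -1.34 (SE 0.15) and -1.92 (SE 0.16), and TMEM43 by -1.25 (SE 0.06) and -0.60 (SE 0.06). SYNE2, like LBR, was higher in ICM than in old cells, by 0.58 (SE 0.19, adjusted p = 0.00927, edgeR). The other large rises in ICM against old cells were AKAP8L (0.94), ZMPSTE24 (0.50), CHMP2A (0.38) and CHMP7 (0.28). The largest falls there were CENPF (-3.58), NRM (-1.87), NEMP1 (-1.04), VRK1 (-0.83) and TMEM43 (-0.65).

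**Figure D5:**
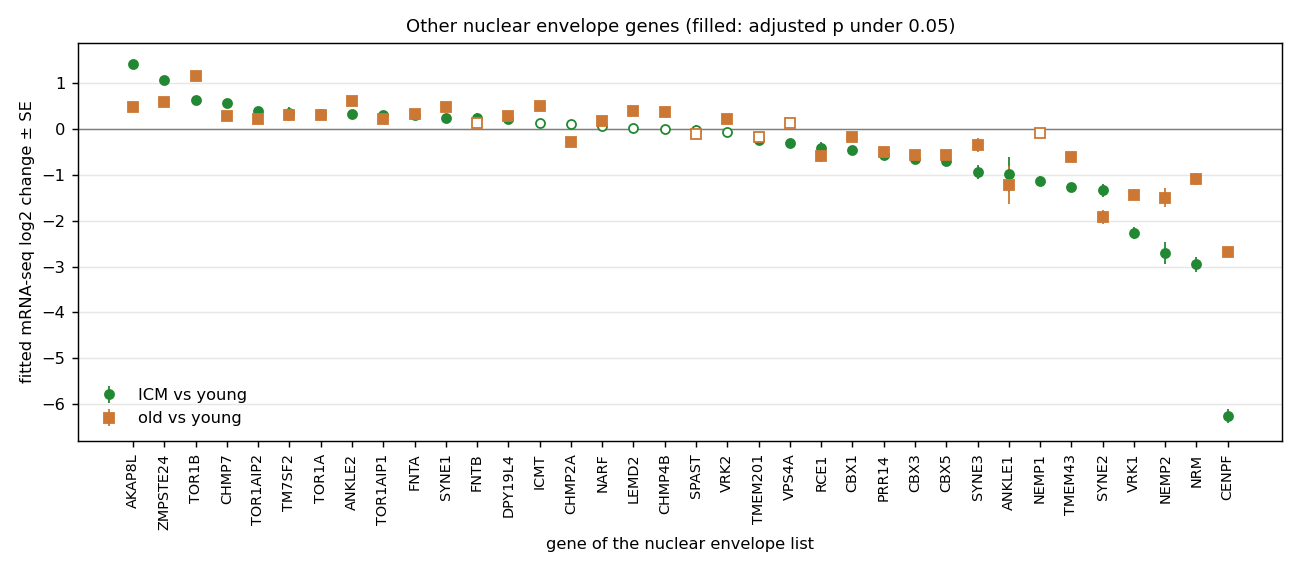
Fitted mRNA-seq log2 changes with standard errors for the 36 tested genes of the nuclear envelope list, ordered by the change in ICM against young cells; filled symbols passed an adjusted p of 0.05. AKAP8L (1.41) and CENPF (-6.25) mark the ends, and most genes lie within 1 log2 unit of 0. Error bars come from the F statistic and can be too short where reads are few.

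The genes nearest to LMNB1, by the distance between their mRNA log2 changes in ICM and in old against young cells, were CDC20, AURKB, DLGAP5, CENPF and MKI67. Their distances ran from 0.55 to 0.77 on the log2 scale among 10799 genes whose mean level reached 5 CPM. CDC20 and AURKB, which act in mitosis, changed by -7.17 and -6.82 in ICM and by -2.33 and -2.32 in old cells, against -6.99 and -2.86 for LMNB1. Both changes of each gene share the young libraries, and the distance is a description over 9 libraries.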

How the data were processed

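The tables deposited by the authors hold, for each of 18 libraries, the estimated count per gene symbol and mRNA region, unscaled. The submitters' processing notes name STAR 2.6.0c, featureCounts, DESeq2, deepTools and GRCh37, with no role for these tables, and how multiply mapped reads were placed was not given in the sources used here. CDS counts were used for Ribo-seq and the sum of 5′ UTR, CDS and 3′ UTR counts for mRNA-seq, rounded. Conditions were compared with edgeR 4.0.16 in R 4.3.3 (TMM, filterByExpr, glmQLFTest) in 1 fit of 9 libraries per assay over all genes, with two-sided p-values adjusted by Benjamini-Hochberg and called under 0.05. Translational efficiency was the assay by condition interaction over 18 libraries with lysate as a block, in place of anota2seq, which was not used here. The lysate pairing rests on the study's methods; deviations of paired libraries from group means correlated with r between -0.08 and 0.14. Each SE was the absolute fitted change over the square root of F. Where a group held few reads, as for LMNB1 in ICM cells, such an SE can be smaller than counting error alone. The fits were also run on simulated counts with planted changes. Each assay was simulated on its own, so the lysate block was not tested there. Lamin ratios were tested by exact permutation. Promoters and coding lengths came from GENCODE v44 lifted to GRCh37. Intervals are exact binomial at 95% and cover counting error only. DESeq2 1.42.0, RLE scaling, no filter, other thresholds, CDS-only mRNA-seq, thinned Ribo-seq, a replicate block and leaving out each lysate were tried as alternatives. Translational efficiency was also fitted without the lysate block. Leaving out both lysates of low CDS share was added after seeing the data. All 10 genes are named; of the envelope list, the 5 largest called rises and falls per comparison with a mean of at least 5 CPM; and the 5 genes nearest to LMNB1. Genes and lists were chosen with earlier results of these data known. No values of other samples were in the tables.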

Additional observations from a re-analysis of the deposited data

Results flagged for a closer look

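In 2 cases the footprint and mRNA changes of a gene differed by the interaction test. The difference (log2 change of footprints minus that of mRNA) was 1.42 for SUN2 in ICM against young cells and 0.98 for LMNB2 in old against young cells, and both calls were lost in several alternative fits.

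Footprints outside coding sequences, which no comparison used, exceeded 3 reads in at least 1 library for 8 genes. In the 5′ UTR the highest library held 18 reads for LMNA, 15 for TMPO, 9 for BANF1 and 6 for LMNB1, and in the 3′ UTR 10 for SUN1, 9 for SUN2, 5 for LMNB2 and 4 for EMD. Summed over the 9 Ribo-seq libraries, TMPO held 21.0 reads in the 5′ UTR against 494 in the CDS, and LMNA 38.0 against 6771.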

How the results depend on the processing

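Of 37 called changes of single genes, 27 were called in the same direction in every alternative fit run for them, among them all mRNA-seq calls of LMNB1, LMNB2, LBR, TMPO, SUN2 and BANF1 and the Ribo-seq falls of LMNB1 and TMPO against young cells; the calls that were lost stand in the report. The BANF1 mRNA fall in old cells stayed called with CDS reads only, at -0.23 against -0.49. Except where said, the cause of a change was not tested. Depth limited the Ribo-seq comparisons: thinned to the shallowest library, 1 of the 10 genes (LMNA) passed the filter, and 0 of the set were called in Ribo-seq or in translational efficiency.

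With an absolute log2 change over 0.6 required, the mRNA-seq calls were 4 in old against young and 4 in ICM against old cells, and those of the envelope list 14 in ICM and 8 in old against young cells and 7 in ICM against old cells. The single Ribo-seq call in ICM against old cells became 0 in DESeq2, 0 with only the compared groups and 0 under the replicate block, 2 without the lysates of low CDS share and 2 at an adjusted p under 0.15, and ran from 0 to 2 when lysates were left out singly. The single call in translational efficiency in ICM against young cells became 0 in DESeq2, RLE scaling, CDS reads only, no filter and without the lysates of low CDS share, and 0 to 1 with single lysates left out. In old against young cells it became 0 in DESeq2 and with no filter, and 0 to 1 with single lysates left out. With no lysate block it became 2 (LMNA added, adjusted p = 0.0345, edgeR).

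Same-numbered replicates of different conditions were not treated as pairs in the main fits. Their deviations correlated with r from -0.06 to 0.10 in mRNA-seq and from 0.00 to 0.06 in Ribo-seq. Yet 15 of 18 Ribo-seq comparisons (7 of 18 in mRNA-seq) correlated best with their own number. Whether same-numbered Ribo-seq libraries shared an effect of replicate number was not tested. With that number as a block, 2 of 35 calls were lost, the Ribo-seq calls of LBR (old against young, -0.63) and LMNB2 (ICM against old, -1.15). Under the block, uncalled Ribo-seq values turned sign for SUN2 in ICM (-0.15) and old (-0.14) against young cells and for EMD in old cells (0.075).

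No called change turned direction in any fit. Uncalled log2 values that did were LEMD3 mRNA in ICM against young cells with CDS reads only (0.031), and in Ribo-seq SUN2 in ICM against young cells with no filter (-0.092), LMNB2 in old cells without the lysates of low CDS share (0.044), EMD in old cells in DESeq2 (0.058), SUN1 in old cells with RLE scaling (-0.013), SUN2 in old cells in DESeq2 (-0.064), and in ICM against old cells SUN1 with no filter (-0.015) and SUN2 in DESeq2 (0.092). In translational efficiency they were SUN2 (-0.13, DESeq2) and BANF1 (-0.17, CDS reads only) in old against young cells and LBR (-0.11, no filter) in ICM against old cells.

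With single lysates left out, uncalled mRNA values that turned ran from -0.091 to 0.063 (LEMD3, ICM against young) and -0.036 to 0.14 (SUN2, old against young). In Ribo-seq, ICM against young, these were LBR (-1.44 to 0.35), EMD (-0.22 to 0.55), SUN1 (-0.076 to 0.47) and SUN2 (-0.074 to 0.19). In old against young they were LMNB2 (-0.34 to 0.057), EMD (-0.37 to 0.26), SUN1 (-0.11 to 0.086) and SUN2 (-0.41 to 0.38). In ICM against old they were TMPO (-0.63 to 0.11), EMD (-0.082 to 0.60), SUN1 (-0.051 to 0.45), SUN2 (-0.33 to 0.45) and BANF1 (-0.69 to 0.38). In translational efficiency, ICM against young, they were LBR (-0.34 to 1.35) and BANF1 (-0.16 to 0.59). In old against young they were LMNB1 (-0.70 to 0.16), TMPO (-0.95 to 0.024), EMD (-0.049 to 0.51), SUN2 (-0.49 to 0.34) and BANF1 (-0.26 to 0.28). In ICM against old they were LMNA (-0.24 to 0.028), LBR (-0.58 to 1.11), SUN1 (-0.37 to 0.10) and BANF1 (-0.36 to 0.61). The lamin ratios kept their direction when lysates were left out singly and with all exon reads.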
